A study of Mus musculus with 16 samples.

Results

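The Hox genes of the mouse colon were followed in RNA-seq libraries of adult wild-type mice of the outbred ICR stock. Every feature whose Ensembl identifier maps to a mouse symbol made of Hox, a cluster letter from a to d and a number was taken, without regard to its values, which gave 37 of the 39328 genes listed. Animals of the CON_VD group were delivered vaginally (VD) and those of CON_CS by cesarean section (CS), and both drank normal water. DSS_VD and DSS_CS mice, delivered in the same 2 ways, were given 3% dextran sulfate sodium (DSS), which damages the epithelium of the colon, in their water over 8 days. Each of the 4 groups held 4 libraries, 16 in all. By its title, the study asks about the susceptibility of cesarean-born offspring to colitis. Neither the mouse behind each library nor the stretch of colon taken is recorded, and the p-values therefore reflect the spread among these libraries alone.

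Hox genes encode homeodomain transcription factors that lie in clusters named A to D, and related genes in the different clusters form numbered paralog groups. Along the embryonic body and gut, low-numbered genes are active from more anterior positions and high-numbered genes only in posterior ones, and the adult colon keeps much of this code. Group 13 marks the hindgut. Hoxa13 and Hoxd13 shape the hindgut and the anal region, and Hoxb13 is known for high levels in the distal colon and rectum and also in the prostate. Groups 1 to 4 are called anterior here, groups 5 to 8 central and groups 9 to 13 posterior.

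Of the 37 genes, 11 lie in the A cluster on chromosome 6, 10 in B (GRCm38 chr11:96194316-96368256), 8 in C (chr15:102936757-103036852) and 8 in D (chr2:74668310-74748442). The spans cover the listed genes only, and no feature was matched to Hoxc13 or Hoxd1. By position in the series of paralogs, 11 are anterior, 11 central and 15 posterior. The start regions of Hoxd13, Hoxa13, Hoxa11 and Hoxb4 are shown since the density of CG pairs differs among them. Each is 250 bases before and 50 after a RefSeq start on GRCm38.p6, read 5′ to 3′ on the gene's strand with every CG in capitals: Hoxd13 at chr2:74667975-74668274 (plus), Hoxa13 at chr6:52260831-52261130 (minus), Hoxa11 at chr6:52245761-52246060 (minus) and Hoxb4 at chr11:96318017-96318316 (plus).
Hoxd13: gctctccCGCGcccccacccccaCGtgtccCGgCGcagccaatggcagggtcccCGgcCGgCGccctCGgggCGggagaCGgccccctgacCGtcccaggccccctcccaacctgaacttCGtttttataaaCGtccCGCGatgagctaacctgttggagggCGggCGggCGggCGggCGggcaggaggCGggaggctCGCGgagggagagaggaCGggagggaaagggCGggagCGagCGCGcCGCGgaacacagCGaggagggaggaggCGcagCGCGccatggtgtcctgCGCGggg
Hoxa13: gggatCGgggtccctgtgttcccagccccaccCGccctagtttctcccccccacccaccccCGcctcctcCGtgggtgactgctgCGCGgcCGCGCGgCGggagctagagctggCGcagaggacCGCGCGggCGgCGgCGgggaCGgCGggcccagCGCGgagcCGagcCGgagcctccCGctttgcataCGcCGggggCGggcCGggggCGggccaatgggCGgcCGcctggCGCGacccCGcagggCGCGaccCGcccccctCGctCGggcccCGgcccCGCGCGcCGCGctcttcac
Hoxa11: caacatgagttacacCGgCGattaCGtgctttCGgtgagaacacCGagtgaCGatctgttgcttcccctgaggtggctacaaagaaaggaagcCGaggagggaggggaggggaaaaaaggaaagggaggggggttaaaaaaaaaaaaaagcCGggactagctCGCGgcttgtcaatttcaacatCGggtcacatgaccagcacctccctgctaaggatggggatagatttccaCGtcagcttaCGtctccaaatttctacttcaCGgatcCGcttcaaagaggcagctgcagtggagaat
Hoxb4: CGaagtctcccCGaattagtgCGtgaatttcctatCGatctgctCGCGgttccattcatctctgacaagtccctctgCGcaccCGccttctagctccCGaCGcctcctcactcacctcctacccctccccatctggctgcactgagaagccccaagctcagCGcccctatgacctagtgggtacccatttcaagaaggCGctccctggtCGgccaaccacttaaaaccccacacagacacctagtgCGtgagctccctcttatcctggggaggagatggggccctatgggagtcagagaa
The Hoxd13 and Hoxa13 windows held 37 and 45 CG pairs, and those of Hoxa11 and Hoxb4 held 15 and 14. This density was not tested against the direction of change described below. Of genes that fell in CS mice, Hoxa9, Hoxa7 and Hoxd12 held 4, 9 and 13. Hoxa3, Hoxd10, Hoxa6 and Hoxa5 held 20, 22, 26 and 29. Hoxa10 and Hoxd11, which fell too, had windows with 12 and 21 and with 4 and 25. Hoxd8, which rose in CS mice, held 6, and Hoxd9, higher under DSS in VD mice, held 20. RefSeq start windows were matched for 21 of the Hox genes, 23 windows in all, with a median of 14 CG pairs against 7 over all 32851 windows. Of these 23 windows, 19 held more than 7. The letters TTTATGG, a sequence bound by Cdx factors, were found on either strand in 2.75% of all windows and, among Hox windows, in that of Hoxd4. The letters TATAAA were in 13.6% of all windows and in those of Hoxa10, Hoxb8, Hoxd4 and Hoxd13.

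The clusters also carry microRNA genes of the families miR-10 and miR-196, shown because their seeds are shared across clusters. Their mature sequences from RefSeq, with the seed (bases 2 to 8) in capitals, are as follows.
miR-10a-5p (chromosome 11): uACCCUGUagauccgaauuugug
miR-10b-5p (chromosome 2): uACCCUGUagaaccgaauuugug
miR-196a-5p (chromosomes 11 and 15): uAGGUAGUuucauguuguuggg
miR-196b-5p (chromosome 6): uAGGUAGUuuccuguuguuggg
Both miR-10 sequences have 1 seed and differ by U12A, and both miR-196 sequences have 1 seed and differ by A12C, counted from 1 at the 5′ end with the base of the first-named sequence first.

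The colon of mice on water carried a strongly posterior Hox profile. Levels are given as FPKM, a fragment count scaled by transcript length and library size, as the authors deposited them. Read depth is unknown, since the values could not be traced back to whole reads. Over all 16 libraries 21 Hox genes had a mean of at least 1 FPKM, 13 were below 1 FPKM in every library, and Hoxc12 was listed at 0 throughout. All 8 listed genes of the C cluster were at or below 0.170 FPKM in every library. That highest value was Hoxc10 in DSS_CS replicate 4. Hoxc4, the highest of them by its mean over the 16 libraries, was at 0.0843, 0, 0.0843 and 0 FPKM in CON_VD, 0, 0.0273, 0.0180 and 0 in CON_CS, 0.0201, 0, 0.0138 and 0 in DSS_VD, and 0.138, 0.125, 0.0680 and 0.0308 in DSS_CS. The 8 listed C cluster genes together therefore held at most 0.353% of the summed Hox FPKM of any library. Hoxb1, a hindbrain gene, was listed at 0 in 15 libraries and at 0.0832 FPKM in DSS_CS replicate 2.

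**Figure D1:**
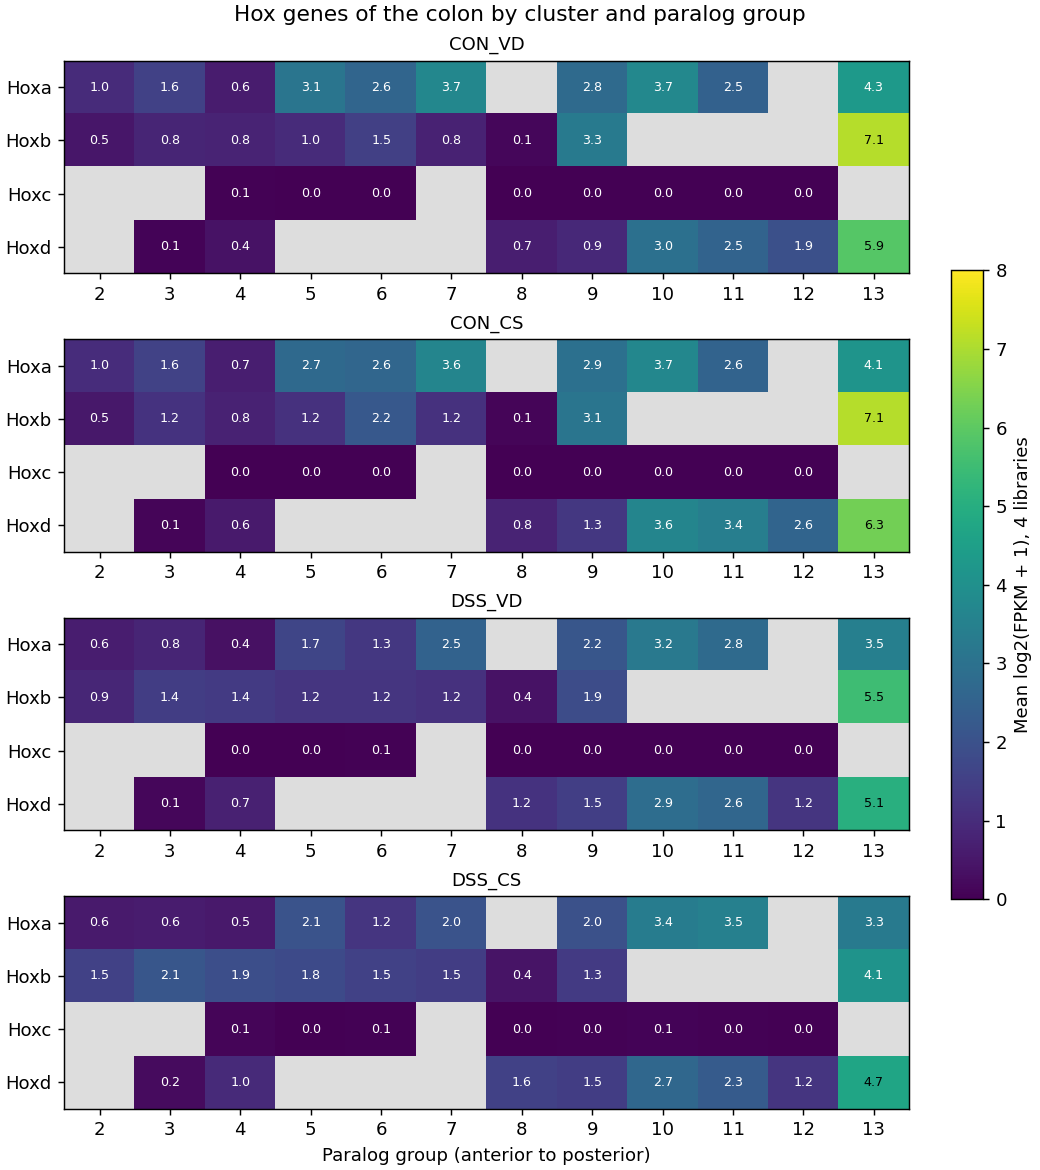
Mean log2(FPKM + 1) over 4 libraries of each Hox gene, by cluster (vertical) and paralog group (horizontal), in the 4 groups; groups 2 to 13 are shown, and grey cells hold no gene among the 37. Hoxb13 is the brightest cell in both groups on water at 7.1, the row of Hoxc genes is dark in all groups, and the color spreads to lower paralog groups of the B cluster under DSS.

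Group 13 dominated in the libraries on water. Hoxb13, Hoxd13 and Hoxa13 together held 67.9% to 75.2% of the summed Hox FPKM in CON_VD and 68.5% to 72.6% in CON_CS, and Hoxb13 by itself held 37.8% to 49.2% over these 8 libraries. Summed per paralog group, levels in CON_VD were 1.38 ± 0.16 FPKM for group 2, 8.75 ± 1.13 for group 5, 12.9 ± 2.65 for group 7, 19.9 ± 3.19 for group 10 and 217 ± 32.4 for group 13 (SD, n = 4). The order was not a smooth rise. Group 8 was at 0.699 ± 0.084 and group 12 at 3.34 ± 1.95, below their neighbours on both sides. Between the means of groups 10 and 11 (19.9 and 10.1 FPKM) the library ranges of 16.1 to 23.9 and 7.62 to 11.5 did not overlap, whereas those of groups 5 and 6 (7.07 to 9.48 and 3.97 to 10.5) did.

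Under DSS the Hox total was lower and its balance was shifted. The summed Hox FPKM was 252 to 338 in CON_VD, 312 to 359 in CON_CS, 117 to 164 in DSS_VD and 91.4 to 159 in DSS_CS, so every library under DSS lay below every library on water. The posterior genes held 84.0% to 91.3% of that sum in CON_VD, 85.2% to 91.0% in CON_CS, 83.5% to 86.8% in DSS_VD and 72.2% to 79.6% in DSS_CS. All 4 DSS_CS libraries thus had a smaller posterior share than any of the other 12. The anterior share was 1.62% to 2.44% in CON_VD, 1.88% to 2.29% in CON_CS, 3.40% to 6.29% in DSS_VD and 7.66% to 13.2% in DSS_CS, which left no overlap between water, DSS_VD and DSS_CS. The anterior sum itself was 5.58 to 7.33 FPKM in DSS_VD, within or close to the 5.05 to 7.17 of the groups on water, and 8.39 to 14.5 in DSS_CS. The share carried by Hoxb13 was 27.4% to 35.6% in DSS_VD and 7.34% to 21.1% in DSS_CS.

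**Figure D2:**
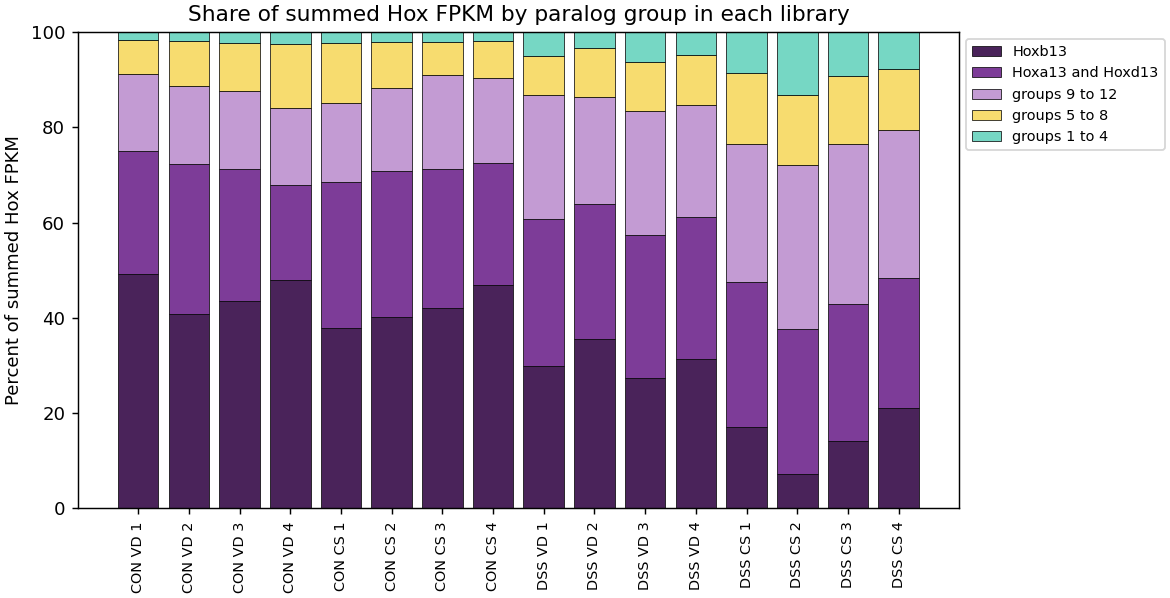
Percent of the summed Hox FPKM held by Hoxb13, by Hoxa13 with Hoxd13, and by the groups 9 to 12, 5 to 8 and 1 to 4, in each of the 16 libraries. The lowest segment, Hoxb13, shrinks from 37.8% to 49.2% on water to 7.34% to 21.1% in DSS_CS, and the top segment, groups 1 to 4, is widest there.

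The response to DSS was tested separately in each birth group, on log2(FPKM + 1), which understates the change of genes at low levels. Of 20 Hox genes tested in VD mice, 10 were lower and 3 higher in DSS_VD than in CON_VD. Over all genes tested in this comparison 40.9% were called, 24% higher and 17% lower, and 65% of the tested Hox genes. In CS mice 14 of 22 were lower and 6 higher in DSS_CS than in CON_CS, against 60.3% of all genes called, 34.4% higher and 25.9% lower. The ranges of 18 of the 22 did not overlap, a share that was not computed over all genes. For 4 of these the level needed for testing was reached in 1 group alone, which fixed their ranges apart. The median difference of the tested Hox genes was -0.56 in VD mice and -0.77 in CS mice, and that of all genes tested was 0.06 in both. Of 20 Hox genes tested in both birth groups, 10 were lower in both, Hoxb3 and Hoxb4 were higher in both and none was called in opposite directions. Hoxb3 in VD mice, and Hoxb4 and Hoxa3 in CS mice, reached the 1 FPKM needed for testing in 1 group alone. The agreement of these genes between the birth groups does not count as support. Scaling by median-of-ratios factors moved the median of all genes in CS mice from 0.06 to -0.05, and the split over all genes from 4937 higher and 3729 lower to 4157 and 4600 (in VD mice from 3340 and 2364 to 2937 and 3024). Under that scaling the 14 lower and 6 higher Hox calls in CS mice were as many.

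The 3 listed genes of group 13 were lower under DSS in both birth groups. Hoxb13 was at 153, 138, 132 and 121 FPKM in CON_VD, 118, 129, 151 and 151 in CON_CS, 42.4, 58.5, 31.9 and 48.3 in DSS_VD, and 27.2, 8.04, 12.9 and 23.7 in DSS_CS. No library under DSS reached the lowest one on water, and all DSS_CS libraries lay below all DSS_VD libraries. Its mean fell from 136 ± 13.4 to 45.3 ± 11.1 FPKM in VD mice, 3.01-fold, a log2 difference of -1.59 ± 0.18 (adjusted p = 1.91e-04). In CS mice it fell from 137 ± 16.6 to 17.9 ± 8.98, 7.65-fold, a difference of -3.00 ± 0.33 (adjusted p = 6.41e-05).

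Hoxd13, which acts in the hindgut, genital tubercle and digits, was at 61.3, 86.8, 66.4 and 32.4 FPKM in CON_VD, 83.3, 82.1, 82.9 and 65.8 in CON_CS, 29.8, 36.3, 26.9 and 37.3 in DSS_VD, and 37.0, 26.5, 18.1 and 22.5 in DSS_CS. The single CON_VD library at 32.4 FPKM lay within the DSS_VD range, and the CS groups did not overlap. The difference was -0.83 ± 0.27 (adjusted p = 0.0345) in VD mice and -1.60 ± 0.20 (adjusted p = 1.29e-04) in CS mice. Without that library, CON_VD replicate 4, the first was -1.11. The call in VD mice was lost without any single one of CON_VD replicates 1, 2 and 3 and DSS_VD replicates 1, 3 and 4, with values of -0.90 to -0.64. Hoxa13, needed for hindgut and distal limb in mouse, was at 19.5, 19.7, 17.5 and 17.6 FPKM in CON_VD, 12.4, 15.8, 22.3 and 16.7 in CON_CS, 14.1, 10.0, 7.96 and 8.78 in DSS_VD, and 11.3, 6.81, 8.24 and 8.36 in DSS_CS. It fell by 0.83 ± 0.16 (adjusted p = 0.00277) and by 0.87 ± 0.19 (adjusted p = 0.00326), with no overlap in either birth group.

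**Figure D3:**
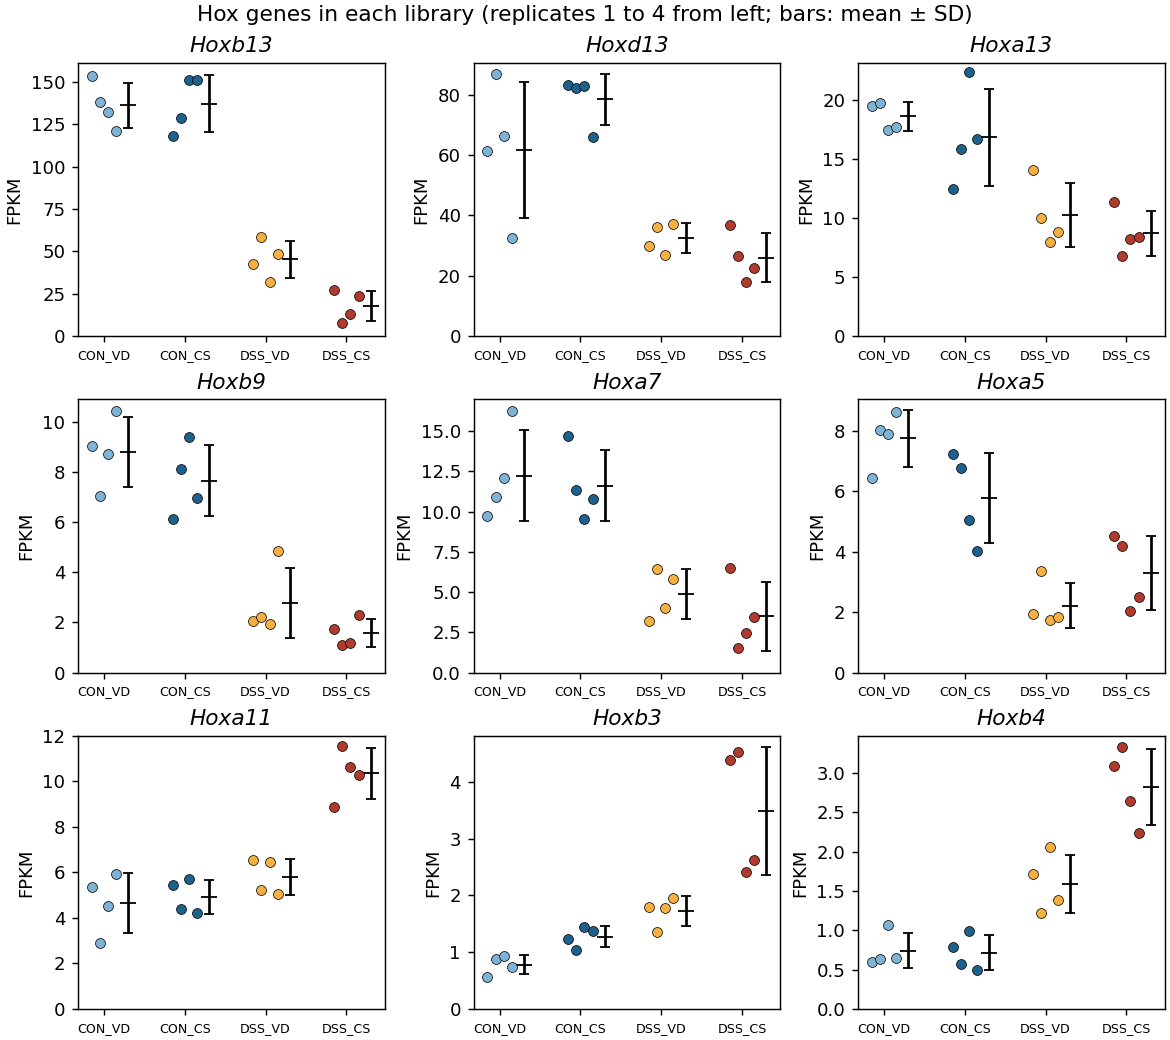
FPKM of 9 Hox genes in every library, replicates 1 to 4 from left within each group, with the mean and SD (n = 4) as bars beside the points. Group 13, Hoxb9, Hoxa7 and Hoxa5 are lower in the groups under DSS, while Hoxa11, Hoxb3 and Hoxb4 are highest in the 4 DSS_CS libraries.

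The other posterior genes did not all move one way. In the A cluster, Hoxa9, known from blood progenitors and leukemia, was at 5.02, 6.57, 5.78 and 5.72 FPKM in CON_VD, 6.50, 6.41, 6.85 and 6.91 in CON_CS, 3.44, 3.91, 2.69 and 3.90 in DSS_VD, and 4.63, 2.41, 2.40 and 2.90 in DSS_CS. It fell by 0.60 ± 0.12 (adjusted p = 0.00423) in VD mice and 0.94 ± 0.16 (adjusted p = 7.89e-04) in CS mice, and neither pair of groups overlapped. Hoxa10, a uterus and axial patterning gene, was at 11.4, 12.4, 12.8 and 13.2 FPKM in CON_VD, 10.9, 10.8, 12.8 and 13.7 in CON_CS, 7.80, 9.04, 7.61 and 9.33 in DSS_VD, and 10.7, 10.0, 7.50 and 9.31 in DSS_CS. It fell by 0.51 ± 0.10 (adjusted p = 0.00320) and 0.34 ± 0.12 (adjusted p = 0.0398), and the second call was lost without CON_CS replicate 3 or 4 or DSS_CS replicate 3 or 4. In the B cluster, Hoxb9, a thoracic patterning gene, was at 9.04, 7.04, 8.73 and 10.4 FPKM in CON_VD, 6.13, 8.12, 9.39 and 6.96 in CON_CS, 2.06, 2.22, 1.94 and 4.85 in DSS_VD, and 1.76, 1.10, 1.19 and 2.31 in DSS_CS. All 8 libraries under DSS lay below all 8 on water, and the difference was -1.43 ± 0.22 (adjusted p = 9.09e-04) in VD mice and -1.75 ± 0.17 (adjusted p = 3.33e-05) in CS mice, where only Hoxb13 fell farther among the Hox genes.

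Hoxa11, a limb and uterus gene, went the other way. It was at 5.35, 2.88, 4.53 and 5.92 FPKM in CON_VD, 5.44, 4.38, 5.70 and 4.22 in CON_CS, 6.55, 5.21, 6.45 and 5.04 in DSS_VD, and 8.90, 11.6, 10.6 and 10.3 in DSS_CS. The 4 DSS_CS libraries were above the other 12, while DSS_VD overlapped both groups on water. Its difference was 0.94 ± 0.11 (adjusted p = 1.16e-04) in CS mice, and 0.29 ± 0.18 (adjusted p = 0.236) in VD mice, which missed the threshold. Exons of the antisense gene Hoxa11os cover 35.0% of the exonic bases of Hoxa11. No source used here gives the strand of the libraries, so reads from the shared bases cannot be assigned to either gene. Hoxa11os itself was at 36.7, 53.6, 45.2 and 43.6 FPKM in CON_VD, 32.6, 42.6, 51.9 and 37.9 in CON_CS, 7.37, 10.3, 9.02 and 12.3 in DSS_VD, and 11.1, 7.11, 7.63 and 11.0 in DSS_CS. It fell by 2.10 ± 0.17 (adjusted p = 4.59e-05) and 2.05 ± 0.18 (adjusted p = 1.83e-05), opposite in sign to Hoxa11 in CS mice.

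Hoxd10, Hoxd11 and Hoxd12, posterior D genes that share long-range enhancers in limb and gut, were lower in CS mice under DSS, and Hoxd9 was not. Hoxd10 was at 8.26, 11.5, 7.21 and 2.90 FPKM in CON_VD, 9.11, 11.2, 14.9 and 11.0 in CON_CS, 7.75, 7.60, 4.99 and 5.05 in DSS_VD, and 8.85, 5.22, 3.94 and 4.34 in DSS_CS. Hoxd11 was at 5.83, 8.59, 5.46 and 1.70 FPKM in CON_VD, 8.36, 9.91, 12.5 and 8.31 in CON_CS, 6.59, 5.69, 3.96 and 4.90 in DSS_VD, and 5.92, 4.04, 2.85 and 3.29 in DSS_CS. For both, CON_CS lay above DSS_CS with no overlap and the VD groups overlapped. Hoxd12 was at 4.24, 4.86, 3.76 and 0.494 FPKM in CON_VD, 5.12, 4.13, 5.96 and 4.72 in CON_CS, 1.37, 1.28, 1.21 and 1.53 in DSS_VD, and 2.22, 2.02, 0.910 and 0.673 in DSS_CS. It too separated the CS groups, and CON_VD replicate 4 lay below all DSS_VD libraries. In CS mice the falls were 0.97 ± 0.23 (adjusted p = 0.00515) for Hoxd10, 1.12 ± 0.20 (adjusted p = 0.00101) for Hoxd11 and 1.33 ± 0.22 (adjusted p = 7.35e-04) for Hoxd12. In VD mice none of the 3 was called, with adjusted p = 0.809, 0.849 and 0.170 in the same order. Hoxd9 was at 1.06, 1.25, 1.04 and 0.318 FPKM in CON_VD, 0.634, 1.31, 2.41 and 1.74 in CON_CS, 1.54, 2.06, 1.55 and 1.98 in DSS_VD, and 2.96, 1.31, 1.28 and 1.69 in DSS_CS. DSS_VD lay above CON_VD by 0.56 ± 0.18 (adjusted p = 0.0300), a call that was lost in 7 of 13 alternatives, those without DSS_VD replicate 2, 3 or 4 among them, and the CS groups overlapped.

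Central genes of the A cluster fell. Hoxa5, which in mouse is needed for maturation of the gut epithelium, was at 6.43, 8.04, 7.91 and 8.62 FPKM in CON_VD, 7.24, 6.79, 5.04 and 4.04 in CON_CS, 1.93, 3.35, 1.75 and 1.85 in DSS_VD, and 4.52, 4.19, 2.04 and 2.49 in DSS_CS. The VD groups were far apart, while DSS_CS replicate 1 at 4.52 lay above CON_CS replicate 4 at 4.04. The falls were 1.46 ± 0.16 (adjusted p = 1.79e-04) and 0.67 ± 0.23 (adjusted p = 0.0324), and the second was lost in 7 of 14 alternatives, with 0.00323 to 0.426 as the range of adjusted p. Among these were the fits without any single one of CON_CS replicates 1, 2 and 3 and DSS_CS replicates 3 and 4. Hoxa6, an axial patterning gene, was at 2.89, 7.67, 4.92 and 6.16 FPKM in CON_VD, 8.05, 6.33, 4.62 and 2.94 in CON_CS, 1.49, 1.93, 0.928 and 1.57 in DSS_VD, and 1.82, 1.12, 1.12 and 1.42 in DSS_CS. It fell by 1.33 ± 0.24 (adjusted p = 0.00205) and 1.39 ± 0.24 (adjusted p = 9.00e-04), with no overlap in either pair. Hoxa7, also an axial patterning gene, was at 9.74, 10.9, 12.1 and 16.2 FPKM in CON_VD, 14.7, 11.4, 9.56 and 10.8 in CON_CS, 3.17, 6.46, 3.99 and 5.84 in DSS_VD, and 6.48, 1.51, 2.49 and 3.47 in DSS_CS. Its falls of 1.19 ± 0.21 (adjusted p = 0.00197) and 1.59 ± 0.30 (adjusted p = 0.00158) likewise separated the groups. Exons of the antisense gene Hoxaas3 cover 20.4% of the exonic bases of Hoxa7, and Hoxaas3 fell too, from 2.18 to 3.46 FPKM on water to 0.293 to 1.28 under DSS.

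Central genes of the B and D clusters were lower in level and mixed. Hoxb5, a gene linked to enteric neural crest, was at 0.639, 1.08, 1.42 and 0.835 FPKM in CON_VD, 1.63, 0.947, 0.989 and 1.40 in CON_CS, 1.56, 1.14, 1.37 and 1.30 in DSS_VD, and 2.81, 3.76, 1.82 and 1.79 in DSS_CS. It rose by 0.64 ± 0.19 (adjusted p = 0.0175) in CS mice. Hoxb6 was at 1.08, 2.78, 3.01 and 1.20 FPKM in CON_VD, 4.93, 3.01, 2.95 and 3.79 in CON_CS, 1.15, 1.39, 1.21 and 1.81 in DSS_VD, and 3.21, 1.41, 1.56 and 1.75 in DSS_CS. It fell by 0.66 ± 0.20 (adjusted p = 0.0184) in CS mice, where DSS_CS replicate 1 lay inside the CON_CS range, and the call was lost without DSS_CS replicate 2 or 3. Hoxd8 was at 0.573, 0.663, 0.568 and 0.561 FPKM in CON_VD, 0.692, 0.966, 0.801 and 0.511 in CON_CS, 1.30, 0.870, 1.25 and 1.55 in DSS_VD, and 2.33, 2.36, 1.61 and 1.57 in DSS_CS. It rose by 0.76 ± 0.13 (adjusted p = 8.89e-04) in CS mice with no overlap. Of these groups it reached the 1 FPKM needed for testing in DSS_CS alone, so it had to differ. Hoxb7, at 0.333 to 1.78 FPKM on water and 0.960 to 2.14 under DSS, was not called in either birth group (adjusted p = 0.104 and 0.0887). Hoxb8 stayed below 1 FPKM and was not tested, and its ranges of 0.0277 to 0.149 on water and 0.170 to 0.604 under DSS did not overlap.

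Among anterior genes, Hoxb2, Hoxb3 and Hoxb4 rose in CS mice and Hoxa3 fell. Hoxb2, a hindbrain gene, was at 0.378, 0.375, 0.453 and 0.421 FPKM in CON_VD, 0.587, 0.348, 0.383 and 0.447 in CON_CS, 0.923, 0.707, 0.840 and 0.752 in DSS_VD, and 2.14, 2.74, 1.24 and 1.70 in DSS_CS. Hoxb3, a hindbrain and pharyngeal gene, was at 0.569, 0.874, 0.932 and 0.745 FPKM in CON_VD, 1.24, 1.04, 1.45 and 1.37 in CON_CS, 1.80, 1.35, 1.77 and 1.96 in DSS_VD, and 4.39, 4.52, 2.41 and 2.63 in DSS_CS. Hoxb4, known for expanding blood stem cells, was at 0.599, 0.632, 1.07 and 0.651 FPKM in CON_VD, 0.793, 0.574, 0.994 and 0.499 in CON_CS, 1.71, 1.22, 2.06 and 1.39 in DSS_VD, and 3.10, 3.33, 2.64 and 2.24 in DSS_CS. For all 3, each DSS_CS library was above every other library, and each DSS_VD library was above every CON_VD library. In CS mice they rose by 1.01 ± 0.15 (adjusted p = 4.55e-04), 0.95 ± 0.17 (adjusted p = 0.00131) and 1.16 ± 0.13 (adjusted p = 6.75e-05) respectively. In VD mice Hoxb3 rose by 0.61 ± 0.12 (adjusted p = 0.00286) and Hoxb4 by 0.58 ± 0.14 (adjusted p = 0.00948), and Hoxb2 was below the level for testing. Hoxa3, a pharyngeal and thymus gene, was at 1.27, 2.24, 2.21 and 2.17 FPKM in CON_VD, 2.36, 2.18, 1.88 and 1.61 in CON_CS, 0.623, 1.10, 0.622 and 0.826 in DSS_VD, and 0.825, 0.411, 0.486 and 0.458 in DSS_CS. It fell by 0.72 ± 0.15 (adjusted p = 0.00440) and 0.96 ± 0.12 (adjusted p = 1.27e-04) without overlap. Hoxa2, Hoxa4, Hoxd3 and Hoxd4 stayed at or below 1.44 FPKM in all libraries and were not tested for DSS.

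Testing required at least 1 FPKM in 4 of the fitted libraries. Hoxb3 in VD mice, and Hoxb2, Hoxb4, Hoxd8 and Hoxa3 in CS mice, met this through 1 group alone and so had to differ, and they do not count as support. Of the exonic bases of Hoxb3, 52.9% are covered by the antisense gene Hoxb3os, as are 27.3% of those of Hoxb2. Hoxb3os had a mean of 0.331 FPKM.

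**Figure D4:**
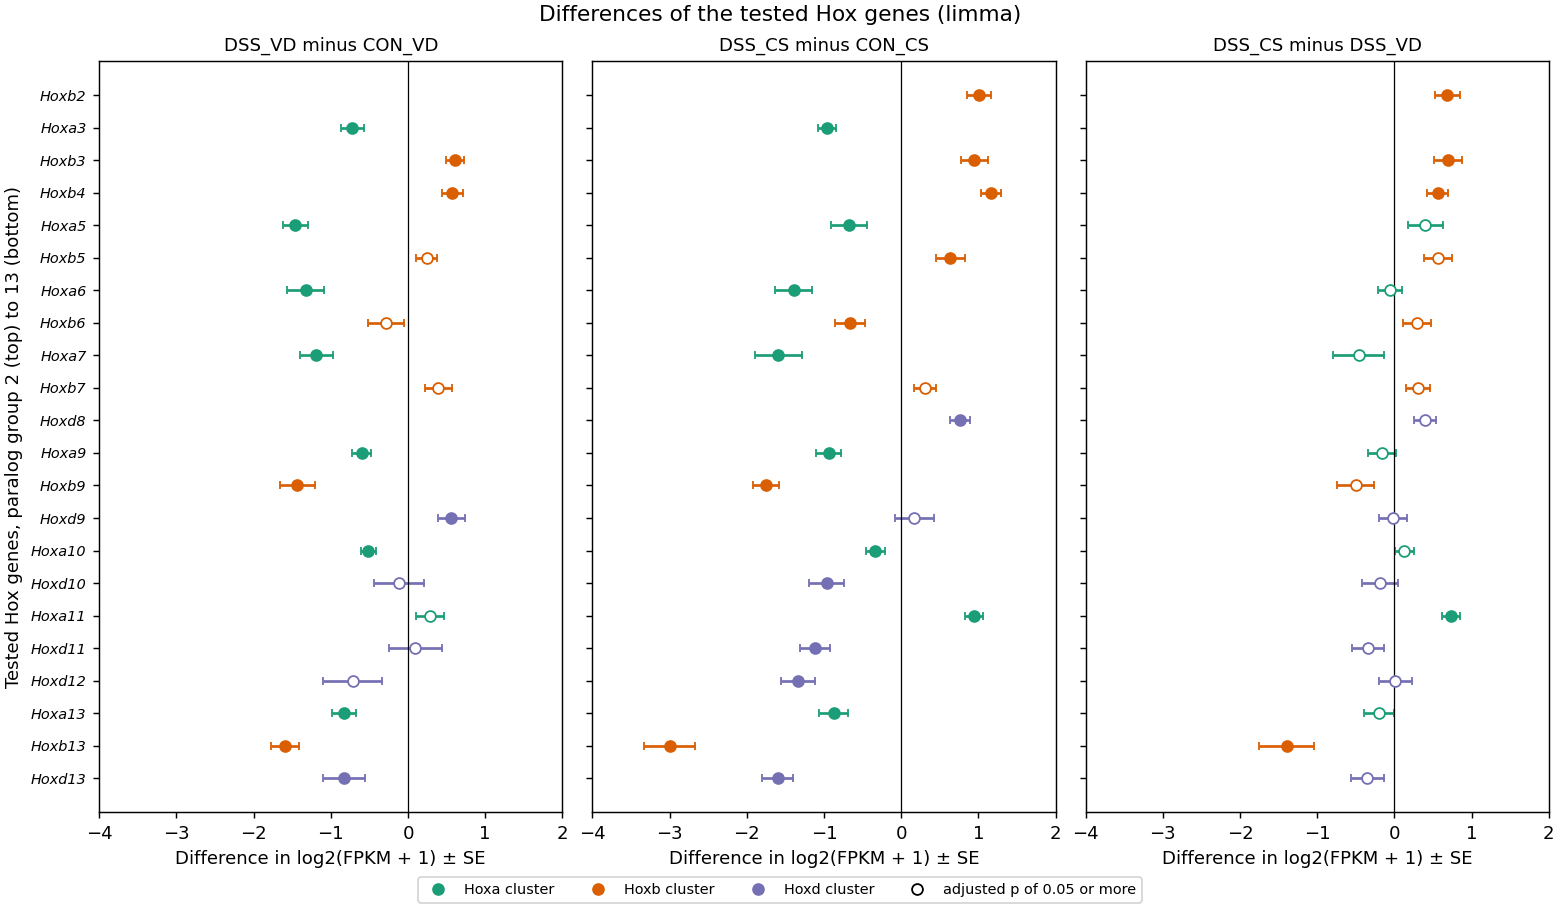
Differences in log2(FPKM + 1) with SE of the tested Hox genes, ordered from paralog group 2 (top) to 13 (bottom) and colored by cluster, for DSS in VD mice, DSS in CS mice, and CS against VD mice under DSS; filled points have an adjusted p under 0.05. Hoxb13 lies farthest left in all 3 panels, at -1.59, -3.00 and -1.40, and Hoxb2, Hoxb3 and Hoxb4 lie right of 0 wherever they were tested.

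Under DSS, cesarean-born mice had less Hoxb13 and more Hoxa11, Hoxb2, Hoxb3 and Hoxb4 than vaginally born mice. Of 21 Hox genes tested, 4 were higher and 1 was lower in DSS_CS, against 13.4% of all genes called in either direction, 7.89% higher and 5.54% lower. Hoxb13 was 2.52-fold lower, a difference of -1.40 ± 0.36 (adjusted p = 0.0414). Hoxa11 was higher by 0.74 ± 0.12 (adjusted p = 0.0313), Hoxb2 by 0.69 ± 0.16 (adjusted p = 0.0345), Hoxb3 by 0.69 ± 0.18 (adjusted p = 0.0420) and Hoxb4 by 0.56 ± 0.14 (adjusted p = 0.0377). The ranges of these 5 did not overlap between the groups, nor did those of Hoxb5 and Hoxd8, whose adjusted p was 0.0673 and 0.0901. Hoxd13 and Hoxa13 overlapped, with differences of -0.35 ± 0.21 (adjusted p = 0.293) and -0.20 ± 0.19 (adjusted p = 0.508). Hoxb2 was tested through the DSS_CS libraries alone. The median difference of the tested Hox genes was 0.01, and 0.06 over all genes, of which 1130 were higher and 793 lower, or 878 and 832 with median-of-ratios scaling.

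These 5 calls were not stable, and neither were those over all genes. None was left without DSS_VD replicate 1 or 2, without DSS_CS replicate 2 or 3, or with no filter on low levels, and 1 to 3 were left without any other single library. Over all genes, with 1923 calls from all 8 libraries, limma called 0 without DSS_VD replicate 1 (4264 of 14098 had an unadjusted p under 0.05), 45 higher and 6 lower without DSS_VD replicate 2, 41 and 16 without DSS_CS replicate 2, 0 and 1 without DSS_CS replicate 3, and 1 and 2 with no filter. For Hoxb13 the difference ran from -1.63 to -1.09 and the adjusted p from 0.00295 to 0.141 over 14 alternatives, always in the same direction.

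Whether the response to DSS differed by birth mode was tested as an interaction over all 16 libraries. Of 23 Hox genes, 1 was called higher and 1 lower, against 13.2% of all genes tested, 6.68% higher and 6.55% lower. The fall of Hoxb13 was greater in CS mice, with an interaction of -1.41 ± 0.40 (adjusted p = 0.0341). Hoxb2 had an interaction of 0.65 ± 0.18 (adjusted p = 0.0298), but it entered this fit through the DSS_CS libraries alone, and its call does not count as support. Hoxb4, Hoxa11, Hoxd11 and Hoxa5 missed the threshold, with adjusted p = 0.0547, 0.0650, 0.0708 and 0.0877. The smaller fall of Hoxd13 in VD mice than in CS mice was not told apart from an equal one, with an interaction of -0.77 ± 0.36 (adjusted p = 0.161). The Hoxb13 call was lost without any single library among CON_VD replicates 2, 3 and 4, CON_CS replicates 2, 3 and 4, DSS_VD replicates 2 and 4, and DSS_CS replicate 3. Its value ran from -1.64 to -1.10 over 21 alternatives, and the adjusted p from 0.00926 to 0.0801. The Hoxb2 call was lost without CON_VD replicate 3, any of CON_CS replicates 2, 3 and 4, or DSS_VD replicate 2, and Hoxb2 was no longer tested without a DSS_CS library.

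On water no Hox gene differed between CS and VD mice by limma with Benjamini-Hochberg adjustment, 0 of 19 tested against 0.407% of all genes. At an unadjusted p under 0.05 there were 5 of 19, Hoxb3, Hoxa5, Hoxb6, Hoxb7 and Hoxd11, and 2598 of 13275 over all genes. Of these 5, the ranges of Hoxb3 alone did not overlap, and it had been tested through the CON_CS libraries alone. The differences were 0.35 ± 0.10 (adjusted p = 0.142) for Hoxb3, 0.67 ± 0.24 (adjusted p = 0.196) for Hoxb6, 0.87 ± 0.34 (adjusted p = 0.217) for Hoxd11 and -0.39 ± 0.16 (adjusted p = 0.234) for Hoxa5. All 5 tested genes of the D cluster had higher means in CON_CS.

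The D cluster genes in the VD group on water were pulled by 1 library. CON_VD replicate 4 had the lowest level of all 8 libraries on water for Hoxd9, Hoxd10, Hoxd11, Hoxd12 and Hoxd13, at 0.318, 2.90, 1.70, 0.494 and 32.4 FPKM, but not for Hoxb13 or Hoxa13. Genes that vary along the colon moved in the same library. It was lowest of the 8 for the sodium channel subunits Scnn1b and Scnn1g, known from the distal colon, at 1.64 and 0.582 FPKM, where the other 7 were at 3.40 to 5.82 and 1.32 to 4.17. It was highest for 3 genes known from the proximal colon, the sodium/proton exchanger Slc9a3 at 35.9, the water channel Aqp4 at 99.8 and the fatty acid binder Fabp2 at 32.1 FPKM. The other genes on these lists were mixed. Pyy, a distal gut hormone, was lowest there too, at 91.5 FPKM, but Insl5 and Gcg were not, and the proximal genes Cd36 and Osr2 were at their lowest, 3.09 and 0.110 FPKM. Summed over the distal list, CON_VD replicate 4 was at 217 FPKM, above CON_CS replicates 1 and 4 at 184 and 216, and summed over the proximal list it was highest at 171. Slc9a3 was at 11.1, 16.4 and 19.8 FPKM in the other CON_VD libraries and at 0.405 to 3.40 in CON_CS, the only one of the 4 tested proximal genes lower in CON_CS by the adjusted p (-3.10 ± 0.40 (adjusted p = 0.0265)). Of 5 distal genes tested on water none was called, and Insl5, a hormone of distal enteroendocrine cells, was nearest with -0.60 ± 0.14 (adjusted p = 0.0931). Proximal sums did not overlap between birth groups, at 60.9 to 171 FPKM in CON_VD and 14.1 to 46.2 in CON_CS. Under DSS they were 34.0 to 49.2 in DSS_VD and 15.7 to 26.9 in DSS_CS. Distal sums overlapped in both pairs. In DSS_CS against DSS_VD, Aqp4 was lower (-2.15 ± 0.45, adjusted p = 0.0326) and Osr2 higher (0.74 ± 0.13, adjusted p = 0.0313). Position along the colon was not recorded in the labels. Its part in these differences, and in those of Hox genes between birth groups, was not tested.

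**Figure D5:**
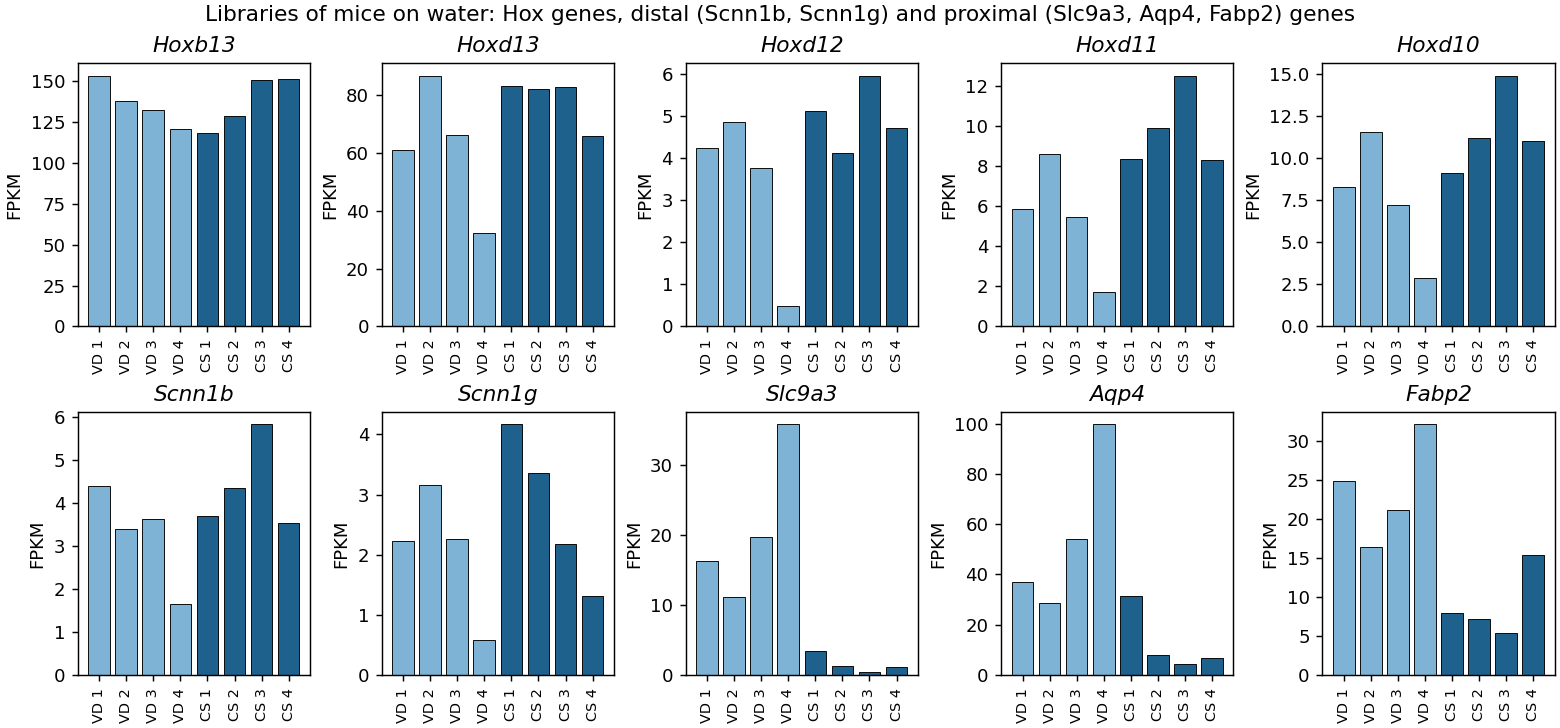
FPKM of 5 Hox genes and of 5 genes known from the distal (Scnn1b, Scnn1g) or proximal (Slc9a3, Aqp4, Fabp2) colon, 1 bar per library of the 8 on water, each axis starting at 0. The bar VD 4 is the lowest for Hoxd10, Hoxd11, Hoxd12, Hoxd13, Scnn1b and Scnn1g and the highest for the 3 proximal genes. Other genes of these lists are not drawn and were mixed. In that library Pyy was lowest, Insl5 and Gcg were not, and the proximal genes Cd36 and Osr2 were lowest.

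Cell type markers moved with the Hox genes under DSS. In bulk tissue, fewer cells of a type and less RNA per cell cannot be told apart. Over all genes tested, 17% and 25.9% were lower under DSS in VD and CS mice, and 5.54% were lower in DSS_CS than in DSS_VD. The shares that were higher were 24%, 34.4% and 7.89% in the same order. Of 12 colon epithelial genes 8 were lower in VD mice and 12 in CS mice under DSS, and 6 were lower in DSS_CS than in DSS_VD. Their summed level was 4523 to 5403 FPKM in CON_VD, 5402 to 5719 in CON_CS, 2160 to 4572 in DSS_VD and 802 to 2348 in DSS_CS. Of 8 fibroblast and mesenchyme genes all 8 were higher under DSS in each birth group and 6 were higher in DSS_CS than in DSS_VD, with sums of 158 to 213 FPKM on water, 382 to 827 in DSS_VD and 1078 to 1444 in DSS_CS. Summed immune markers ran from 77.5 to 307 FPKM on water and from 588 to 1606 under DSS. Summed smooth muscle markers were at 1556 to 2547 FPKM on water, 1009 to 1309 in DSS_VD, below every library on water, and 1126 to 2689 in DSS_CS. Of 7 such genes tested 5 were lower in VD mice, and of 8 tested 2 were lower in CS mice. Enteric neuron and glia markers summed to 6.76 to 15.1 FPKM on water, 22.6 to 26.9 in DSS_VD and 37.2 to 84.1 in DSS_CS. Of these genes 3 of 4 tested were higher in VD mice and 7 of 7 in CS mice. Their interaction was called for 3 of 7, against 13.2% of all genes. On water 3 reached the level for testing, so others were tested in CS mice at least partly through DSS_CS. The 7 of 7 therefore does not count as support. Endothelial markers summed to 10.7 to 13.5 FPKM in CON_VD, a median of 14.4 in CON_CS, 24.4 to 47.0 in DSS_VD and 51.6 to 73.1 in DSS_CS, with 5 of 5 higher in each birth group. Small intestinal markers summed to at most 10.3 FPKM.

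For 6 Hox genes the level was then set against a marker list within each library, as log2(FPKM + 1) minus the mean of the list, in a step added after the values had been seen. Relative to the 12 epithelial genes, Hoxb13 was at -1.40 ± 0.13 in DSS_VD and -1.45 ± 0.29 in DSS_CS, a difference of -0.05 (exact two-sided permutation p = 0.83). Against water it was lower by this measure in both birth groups, by -0.59 and -0.75 (exact p = 0.0286 for each, the smallest that 4 against 4 libraries allow, and 0.0571 after adjustment over 24 such tests). Hoxd13 and Hoxa13 were higher in DSS_CS than in DSS_VD on this scale, by 0.999 and 1.15 (exact p = 0.0286, adjusted 0.0571). Against water their means were not lower by this measure, with differences of 0.17 and 0.17 in VD mice (exact p = 0.743 and 0.543) and 0.65 and 1.38 in CS mice (exact p = 0.0286, adjusted 0.0571, for each). Relative to the 8 fibroblast genes, Hoxa11, Hoxb3 and Hoxb4 differed between DSS_CS and DSS_VD by -0.14, -0.18 and -0.31 (exact p = 0.6, 0.514 and 0.171). Against water they were lower on this scale in both birth groups, by -1.41 to -1.08 in VD mice and -1.39 to -1.17 in CS mice. The scale understates changes of genes at low levels, here Hoxb3 and Hoxb4. In CS mice the mean of Hoxb4 rose 3.95-fold under DSS but entered as 1.16. Between DSS_VD and DSS_CS, Hoxb3 was 2.03-fold higher but entered as 0.69. The values of Hoxb3 and Hoxb4 relative to the list therefore cannot be read as changes against the fibroblast genes. Each of the 6 Hox genes was set against 1 list only. Enteric neuron and glia markers were also higher in DSS_CS (summed 37.2 to 84.1 FPKM) than in DSS_VD (22.6 to 26.9), and were not used here. The share of each cell type in the differences of these Hox genes was not tested.

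Prostate genes appeared in 3 libraries, and Hoxb13 is also a prostate gene. Pbsn, a secretory protein of the rodent prostate, was at 185 FPKM in CON_CS replicate 1, 128 in DSS_CS replicate 3 and 1355 in DSS_CS replicate 4, and at or below 0.526 in the other 13. Of the 12 genes on the prostate and seminal vesicle list, Spink1 alone was at 51.6 FPKM or more in every library. Without the 3 libraries the Hoxb13 difference was -3.18 for DSS in CS mice (adjusted p = 0.00436) and -1.50 for CS against VD mice under DSS (adjusted p = 0.141, within 0.00295 to 0.141 over all alternatives). With those libraries left out, 12 Hox genes were called in place of 20 for DSS in CS mice, among 17 in place of 22 tested. Over all genes the calls for DSS in CS mice fell as well. They went from 4937 higher and 3729 lower of 14372 to 2802 and 2415 of 12324. For CS against VD mice under DSS they went from 1130 higher and 793 lower to 2 and 4.

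Partners and neighbours of the Hox genes moved as well. Of 7 tested Hox cofactors, homeodomain proteins of the Pbx, Meis and Pknox families that bind DNA with Hox proteins, 4 were higher in DSS_CS than in DSS_VD, with a median difference of 0.51 over the list and 0.06 over all genes. Meis2 was at 0.729, 0.689, 0.749 and 0.780 FPKM in CON_VD, 0.930, 0.839, 0.779 and 0.738 in CON_CS, 1.90, 0.988, 1.73 and 2.24 in DSS_VD, and 4.26, 5.94, 3.99 and 3.22 in DSS_CS. All DSS_CS libraries were above all others. It was higher by 0.98 ± 0.19 (adjusted p = 0.0313) than in DSS_VD, and Meis1 by 0.75 ± 0.17 (adjusted p = 0.0346). Under DSS 2 of 6 cofactors were higher in VD mice (Meis3 by 0.63 ± 0.16 and Meis1 by 0.47 ± 0.15) and 6 of 7 in CS mice, among them Meis2 with 1.53 ± 0.14 and Meis1 with 1.16 ± 0.13. Meis2 reached 1 FPKM in no library on water, so in CS mice it was tested through DSS_CS alone and had to differ. The interaction was called for 4 of 7, among them Meis2 with 0.91 ± 0.21 (adjusted p = 0.0174), and none of 6 differed on water. Over all genes tested, 7.89% were higher in DSS_CS than in DSS_VD, and 24% and 34.4% were higher under DSS in VD and CS mice. The interaction was called for 13.2% of all genes, and a difference on water for 0.407%.

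The ParaHox and intestinal identity factors fell together. All 8 tested were lower under DSS in both birth groups, with median differences of -1.33 in VD mice and -2.85 in CS mice. Of all genes tested, 17% and 25.9% were lower in the same order. Cdx1, a caudal-type factor of the gut epithelium that lies upstream of Hox genes in the embryo, was at 174, 153, 163 and 177 FPKM in CON_VD, 154, 153, 137 and 157 in CON_CS, 31.6, 67.8, 35.1 and 63.6 in DSS_VD, and 28.0, 8.46, 12.4 and 25.4 in DSS_CS. It fell by 1.81 ± 0.25 (adjusted p = 4.69e-04) and 3.10 ± 0.33 (adjusted p = 5.41e-05) without overlap, and the 4 DSS_CS libraries lay below the 4 of DSS_VD. Cdx2, its close relative, was at 18.5, 15.3, 25.1 and 33.0 FPKM in CON_VD, 21.4, 15.1, 4.75 and 7.74 in CON_CS, 3.98, 10.2, 4.09 and 6.20 in DSS_VD, and 7.47, 1.74, 2.56 and 3.00 in DSS_CS. CON_CS replicate 3 at 4.75 lay inside both DSS ranges, and Cdx2 fell by 1.78 ± 0.30 (adjusted p = 0.00150) and 1.44 ± 0.47 (adjusted p = 0.0255). Of the 8 factors, 3, among them the nuclear receptors Hnf4a and Hnf4g, were lower in DSS_CS than in DSS_VD, against 5.54% of all genes. Cdx1 and Cdx2 are also on the epithelial marker list.

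Of the non-coding genes in the clusters, 4 of 5 tested fell under DSS in VD mice, against 17% of all genes. In CS mice 4 of 6 fell, against 25.9% of all genes, and 1, Hotairm1, rose by 0.59 ± 0.17 (adjusted p = 0.0151). Beside Hoxa11os and Hoxaas3 those that fell were Hottip, an RNA from the posterior end of the A cluster, and Mir196a-1, the miR-196a precursor of the B cluster. Hottip was at 7.15, 7.68, 7.25 and 8.60 FPKM in CON_VD, 5.43, 5.32, 8.12 and 4.71 in CON_CS, 1.44, 1.04, 0.460 and 1.05 in DSS_VD, and 1.28, 0.144, 0.315 and 0.838 in DSS_CS. It fell by 2.14 ± 0.16 (adjusted p = 3.13e-05) and 2.10 ± 0.23 (adjusted p = 6.81e-05) with no overlap. Mir196a-1 was at 17.4, 23.4, 27.2 and 24.3 FPKM in CON_VD, 17.9, 25.5, 32.0 and 18.9 in CON_CS, 2.06, 5.99, 1.29 and 8.57 in DSS_VD, and 2.95, 0.767, 1.83 and 3.09 in DSS_CS, and fell by 2.35 ± 0.42 (adjusted p = 0.00184) and 3.00 ± 0.29 (adjusted p = 2.85e-05). These values come from total RNA libraries and do not measure the mature microRNA printed above. In mouse, miR-196 is known to cut the Hoxb8 transcript, whose levels are given above. Mir196b, Mir10a and Mir10b were at or below 1.30 FPKM in every library. Hotairm1, a non-coding RNA of the A cluster, was higher in DSS_CS than in DSS_VD by 0.49 ± 0.12 (adjusted p = 0.0372).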

How the data were processed

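RNA was extracted from mouse colon as total RNA with Trizol, per the labels' protocols. The authors deposited FPKM values as 1 table of 39328 genes by 16 libraries. The submitters' processing notes name cutadapt and FastQC, with no version, and the build GRCm38. Aligner, quantifier, annotation and library strand were not given in the sources used here. FPKM sums per library were 280135 to 343423. Depth is unknown: over 12971 low genes, at most 0.978% of the ratios between 2 libraries shared 1 value. Values of 0 may be failed estimates and are described as listed at 0.

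Identifiers were matched to symbols for 39181 genes and not for 147. Positions and exon overlaps came from the GENCODE annotation of GRCm38, and sequences from RefSeq tables on GRCm38.p6. The columns were mapped to samples by their titles, and 0 were left unused. The tests, run on log2(FPKM + 1) with limma 3.58.1 (R 4.3.3) and a trended variance prior, took genes at 1 FPKM or more in at least 4 fitted libraries. P-values are two-sided and Benjamini-Hochberg adjusted over all genes tested, with a threshold of 0.05. Fits held the 8 libraries of the groups compared, or all 16 for the interaction, and comparisons that share a group share its libraries. Errors are SD over 4 libraries for levels and SE for differences. The fits were tested on simulated data. Exact permutation tests used scipy 1.17.1, and figures matplotlib 3.10.9.

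Values in every library are given for Hox genes called in any comparison, for the highest gene of each cluster and of each paralog group with a mean of at least 1 FPKM, and for group 13. From other lists up to 3 called genes of smallest adjusted p per list and comparison could be named. Some genes are not reported here. The Hox genes and all lists were chosen with earlier results of these data known. Alternatives were a pseudocount of 0.1, no filter on low values, median-of-ratios scaling, 1 fit on all groups, replicate number as a block, each library left out, and the 3 libraries with prostate genes left out.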

Additional observations from a re-analysis of the deposited data

Results flagged for a closer look

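In 84 groups of 4 libraries, 21 Hox genes in each of the 4 groups, 7 held a library far from the other 3 relative to the range of the group, where chance gives about 1 in 20 groups. Among them, Hoxd13 in CON_CS replicate 4 was at 65.8 FPKM, below the 82.1 to 83.3 of the other 3. Hoxb9 in DSS_VD replicate 4 was at 4.85 FPKM, above 1.94 to 2.22, and Hoxb7 in the same library at 1.91, above 0.960 to 1.10. Hoxa5 in DSS_VD replicate 2 was at 3.35 FPKM, above 1.75 to 1.93. In CON_VD, Hoxa3 was low in replicate 1 at 1.27 FPKM (others 2.17 to 2.24), Hoxb4 high in replicate 3 at 1.07 (others 0.599 to 0.651) and Hoxd8 high in replicate 2 at 0.663 (others 0.561 to 0.573).

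The response to DSS differed between the birth groups, by the limma interaction, for Hoxb13 with -1.41 (adjusted p = 0.0341) and for Hoxb2 with 0.65 (adjusted p = 0.0298). Hoxb2 reached 1 FPKM in the 4 DSS_CS libraries and in none of the other 12, so it entered the fit through that group alone, and its call does not count as support.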

How the results depend on the processing

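Every called Hox gene kept its direction in every alternative in which it was tested, 9 to 21 of them per gene and comparison. Counts of Hox genes called were least stable for CS against VD under DSS, where 5 became 0 with no filter on low values, 0 without the 3 libraries with prostate genes and 0 to 3 with single libraries left out. The interaction gave 2 calls, 0 with no filter, 1 without the libraries with prostate genes and 0 to 4 with single libraries left out. For DSS in CS mice 20 became 12 without the libraries with prostate genes, which also left 17 in place of 22 genes to test, and 14 to 19 with single libraries left out. For DSS in VD mice 13 became 10 to 14, and on water the count was 0 in every alternative run. Without a library of the group that carried a gene over 1 FPKM, fewer of the low genes could be tested, which lowered these counts by construction. Calls over all genes fell too without the libraries with prostate genes. There were 2 higher and 4 lower for CS against VD under DSS, 2802 and 2415 for DSS in CS mice, and 454 and 183 for the interaction.

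The mean posterior share, 85.4% in DSS_VD and 76.2% in DSS_CS, was 87.3% and 79.4% over genes with a mean of at least 1 FPKM. The sign changed for uncalled values near 0. Hoxb13 on water, at 0.01, was -0.056 with median-of-ratios scaling and -0.046 to 0.077 with single libraries left out, below 0 in 4 of these fits. The interaction of Hoxa13 was -0.17 to 0.11 with single libraries left out, above 0 in 3 of these fits. The cause of these changes was not tested.

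With the replicate number as a block, 0 Hox genes were called for CS against VD under DSS, 13 and 19 for DSS in VD and CS mice, and 2 for the interaction, where Hoxb13 had an adjusted p of 0.0501 (0.00926 to 0.0801 over all alternatives). Over all genes the block left 1 higher and 1 lower of 14313 for CS against VD under DSS. It left 3174 and 2047 of 13933 for DSS in VD mice and 4708 and 3539 of 14372 in CS mice. For the interaction it left 730 and 790 of 15233. The replicate numbers do not pair the samples: the correlations of same-numbered deviations ran from -0.30 to 0.14. Limits are the unknown depth, the unknown strand for genes with antisense partners, and the unknown stretch of colon.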

Other observations

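Chromatin regulators known to keep Hox clusters silent or active, the Polycomb and Trithorax lists of 18 genes, all tested, moved in both directions. Under DSS 1 was higher and 2 were lower in VD mice, and 6 were higher and 3 lower in CS mice, where 40.9% and 60.3% of all genes were called. Bmi1, a Polycomb subunit, was at 4.92, 5.75, 5.16 and 4.30 FPKM in CON_VD, 5.97, 6.33, 6.25 and 5.90 in CON_CS, 9.33, 7.92, 9.75 and 9.09 in DSS_VD, and 11.0, 10.7, 12.4 and 11.5 in DSS_CS. All 8 libraries under DSS were above all 8 on water, and the differences were 0.73 ± 0.11 (adjusted p = 7.17e-04) and 0.80 ± 0.07 (adjusted p = 1.96e-05). Kdm6b, a demethylase that removes the Polycomb mark, rose by 1.05 ± 0.15 (adjusted p = 3.51e-04) in CS mice. Kdm6b was the 1 member of 18 called between DSS_CS and DSS_VD, higher by 0.52 ± 0.13 (adjusted p = 0.0413), against 13.4% of all genes. None was called on water or for the interaction, against 0.407% and 13.2% of all genes.

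Of 9 tested genes that flank the clusters or share their regulatory landscapes, 2 were higher and 2 lower under DSS in VD mice, and 2 higher and 4 lower in CS mice, near the 40.9% and 60.3% called over all genes. Ttll6, a tubulin-modifying enzyme whose gene lies near Hoxb13, was at 9.57, 14.4, 14.0 and 11.3 FPKM in CON_VD, 15.1, 15.6, 20.8 and 16.4 in CON_CS, 1.90, 2.71, 1.25 and 2.47 in DSS_VD, and 1.59, 0.434, 0.722 and 0.804 in DSS_CS. Its differences of -2.12 ± 0.18 (adjusted p = 6.67e-05) and -3.27 ± 0.18 (adjusted p = 1.49e-06) left no overlap, and the interaction was -1.15 ± 0.27 (adjusted p = 0.0178). Snx10, beyond the A cluster, rose by 1.16 ± 0.15 (adjusted p = 3.62e-04) and 1.02 ± 0.08 (adjusted p = 1.07e-05).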
